A study of Drosophila melanogaster with 2 samples.

Results

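The midline guidance genes of Drosophila melanogaster are a small set of ligands, receptors and a regulator that steer growing axons at the midline of the embryonic nerve cord. The set was listed by gene symbol and holds 9 of the 13945 protein-coding genes annotated on the 6 main chromosomes. The 3 ligand genes are sli, NetA and NetB, the 5 receptor genes are robo1, robo2, robo3, fra and unc-5, and comm is the regulator. Chromatin immunoprecipitation followed by sequencing (ChIP-seq) had been carried out on whole embryos that carry a transgene for Repo with green fluorescent protein (GFP) at its C-terminus. The antibody was against GFP according to the sample descriptions, while the antibody field of the same labels names repo, so the labels do not settle whether untagged Repo could also have been recovered. The embryos were 0 to 24 hours old, both sexes were pooled, and the chromatin had been sheared by sonication to 200 to 800 bp. The series has 1 group of 2 biological replicates, numbered 1 and 3. Control chromatin, other genotypes and single stages were not analysed here, so the comparisons are between genes within the peak lists and between the replicates. Peak lists hold no expression values, so the cells that carried the tagged protein could not be checked by markers. Whole embryos hold glia among many other cell types, and a peak does not say which cells it came from.

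Repo is a homeodomain transcription factor that most glia of the fly embryo make and need to differentiate. The glia of the midline itself are a separate class that lacks Repo. They secrete Slit, the product of sli, which repels axons that carry Robo receptors. Robo1 keeps axons from crossing the midline again, while Robo2 and Robo3 also place axons in lanes farther from it. Comm sorts Robo away from the growth cone surface while an axon crosses. The Netrins, encoded by NetA and NetB, attract axons through Frazzled, the product of fra, and repel axons and guide glia through Unc-5.

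Sequence is shown first for a ligand, a receptor and the regulator. The stretches are from both intronic peaks of NetA, far from its start, the promoter peak of robo2, and the upstream peak of comm. The comm peak lies below the authors' threshold and holds a match to the reported Repo site. The letters are from the RefSeq Release 6 assembly (dm6) and run 5′ to 3′ on the minus strand, the coding strand of these genes. Each line has the gene and the distance in bp of the summit from the nearest transcription start site (TSS) of that gene, with a minus sign for upstream. Capitals mark TAAT, a core that many homeodomain proteins bind, on either strand (ATTA when reversed), or 1 of 10 fixed motifs; the 10 include CAATTA, the site reported for Repo. The windows reach 100 bp either side of the summit. They are chrX:14627524-14627724 and chrX:14633226-14633426 in intron 1 of NetA and chr3L:15729485-15729685 upstream of comm. For the promoter peak of robo2 the stretch shown is the 161 bases of the peak that lie upstream of the TSS, chr2L:1420454-1420614. Both NetA windows are rich in A and T and hold 4 TAAT cores each, and in the second a pair overlaps as ATTAAT. The robo2 promoter stretch holds 0 TAAT cores and 0 fixed motifs. The comm window of 201 bases holds CAATTA near its 5′ end, from base 15, away from the summit. Near its middle it holds GGTCACAC on the reverse strand, printed as GTGTGACC.
NetA 26210: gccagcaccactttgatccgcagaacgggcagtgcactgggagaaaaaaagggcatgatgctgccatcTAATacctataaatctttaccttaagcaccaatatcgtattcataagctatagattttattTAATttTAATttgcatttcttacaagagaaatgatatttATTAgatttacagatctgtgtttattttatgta
NetA 20508: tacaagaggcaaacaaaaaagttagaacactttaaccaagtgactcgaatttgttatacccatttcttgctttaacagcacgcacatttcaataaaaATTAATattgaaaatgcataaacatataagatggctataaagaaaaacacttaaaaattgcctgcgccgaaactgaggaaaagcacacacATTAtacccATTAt
robo2 36: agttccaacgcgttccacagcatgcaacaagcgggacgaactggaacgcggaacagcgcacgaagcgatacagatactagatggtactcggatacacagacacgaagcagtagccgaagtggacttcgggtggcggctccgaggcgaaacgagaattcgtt
comm -1155: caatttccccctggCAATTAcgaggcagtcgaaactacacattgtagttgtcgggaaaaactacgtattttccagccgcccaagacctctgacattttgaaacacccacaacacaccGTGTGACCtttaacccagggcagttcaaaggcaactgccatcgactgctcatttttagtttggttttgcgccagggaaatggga

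Of 4 deposited dm6 peak lists, those of replicate 1, of replicate 3 and of the pooled reads hold 30000 peaks each, background included, and the authors' optimal list holds 2697. The optimal peaks were the 2697 pooled peaks of highest signal value. That value is the authors' own, its scale is not stated, and it ran from 84.0 to 1703 in the optimal list with a median of 123. It was compared within a list, and between lists by rank, where rank 1 is the highest signal. Rank 2697 corresponded to a signal of 44.0 in replicate 1 and 44.3 in replicate 3. Read depth is unknown, since the lists hold no read counts.

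Repo-GFP peaks were found at all 3 ligand genes and at 4 of the 5 receptor genes, while comm and robo3 had no optimal peak. A gene was counted as bound when the summit of an optimal peak lay between 2000 bp upstream of the gene and its end. By this rule 7 of the 9 genes were bound (sli, NetA, NetB, robo1, robo2, fra and unc-5), beside 2751 of all 13945 genes (19.7%). Long genes are bound more often, and these genes are long, with intervals of 8.9 to 65.3 kb. Among the 2424 genes in that range, called genes of like length below, 868 (35.8%) were bound. Shorter genes prevail in that set, with 1182 of 10 to 20 kb and 653 of 20 to 40 kb. Among genes within 10% of a member's own length, itself included, the share bound ran from 28.4% for comm to 51.9% for NetB. It was above 35.8% for all members but comm and robo1 (29.1%). The share over all genes climbed with length, at 13.1% for intervals of 2 to 5 kb, 34.3% for 10 to 20 kb and 44.7% for 40 to 80 kb. With 9 genes listed by name and 1 group of samples, no test was made of these counts.

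Ligands and receptors had the same number of optimal peaks over a similar summed length of DNA, but this equality depended on the list used. The ligands held 6 peaks in 171.9 kb (3.49 per 100 kb) and the receptors 6 in 162.0 kb (3.70 per 100 kb). Among the 2697 highest peaks of replicate 1 alone the split was also 6 in ligands and 6 in receptors, while replicate 3 alone gave 3 in ligands and 7 in receptors. With the 5394 highest pooled peaks it was 6 in ligands and 10 in receptors. The gain in receptors was in unc-5 alone, which had 1 optimal peak, 4 in replicate 3 and 5 among the 5394. The counts of robo1, robo2 and fra rose in neither list. Signal values covered nearly the same range, with a median of 117 in ligands (85.2 to 165) and of 113 in receptors (89.5 to 166). Summits lay 53 to 59748 bp from the nearest own TSS in ligands (median 23359 bp) and 27 to 14757 bp in receptors (median 5009.5 bp). The 2 ranges overlap over most of the receptors' span. Distance within a gene is limited by its length, and each ligand interval (51.9 to 65.3 kb) was longer than each receptor interval (10.4 to 42.4 kb). The map of peaks along the genes shows these positions.

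**Figure D1:**
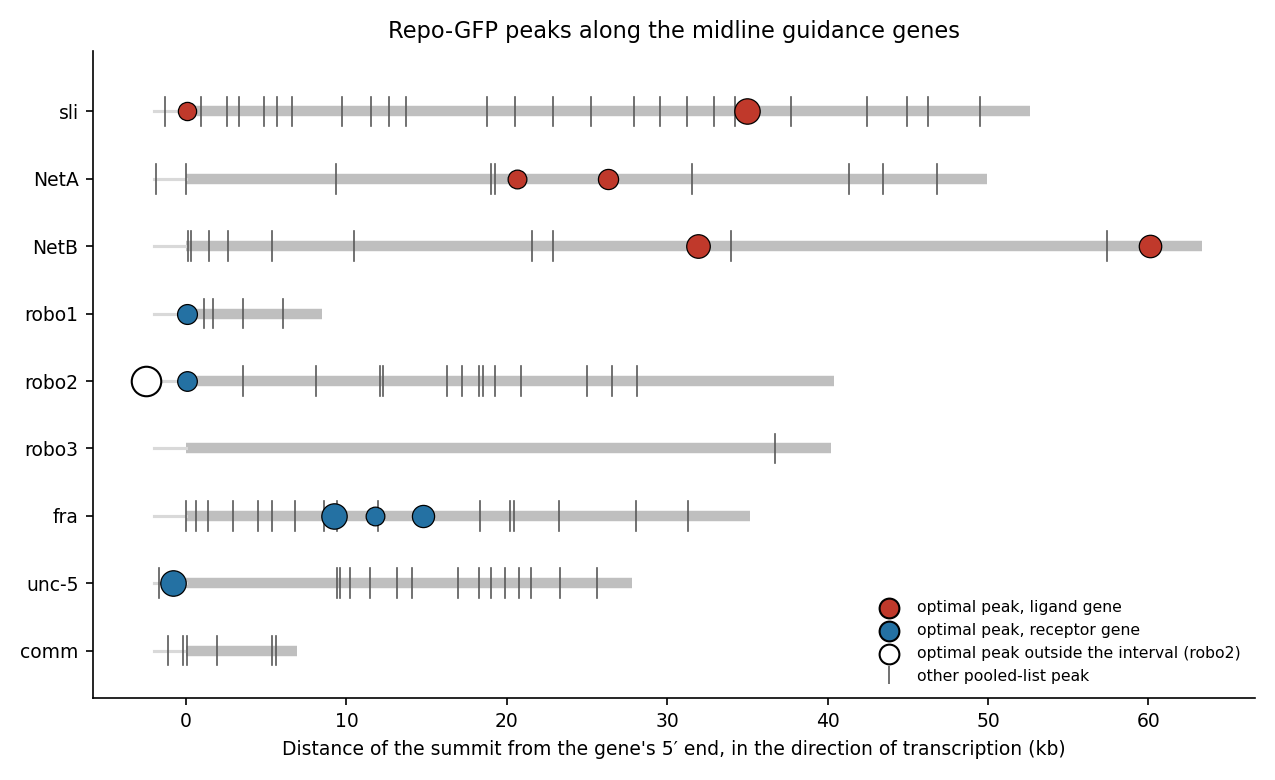
Summits along the 9 genes, in kb from the gene's 5′ end in the direction of transcription; the thick bar is the gene and the thin bar its 2000 bp upstream. Filled circles are the 12 optimal peaks (area grows with signal value), the open circle is the peak of signal 223 just beyond the robo2 interval, and ticks are the other pooled peaks, of which robo3 has 1.

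The gene sli (FBgn0264089, minus strand, chr2R:15869495-15922118) encodes the midline repellent and had 2 optimal peaks. The stronger, at chr2R:15886930-15887325, had a signal of 165 and pooled rank 778. Its summit lay in an intron of 3974 bp that all 6 annotated transcripts share, 3789 bp downstream of the nearer of 2 annotated TSSs. It ranked 643 and 997 in replicates 1 and 3, high in both. The weaker peak, at chr2R:15921867-15922262, sat 53 bp downstream of the TSS at the 5′ end of the gene. Its signal of 85.2 (rank 2627) was near the lower end of the optimal list, and it ranked 2514 in replicate 1 and 4514 in replicate 3. A gene-wide scatter of weaker peaks accompanied the pair, and sli held 27 pooled peaks. The 104 genes within 10% of its length, sli included, had a median of 8, and 6 of those 104 had at least 27. None of these other sli peaks had a signal above 48.6.

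The Netrin genes lie 32.1 kb apart on the X chromosome, with 1 coding gene between them, and each had 2 optimal peaks far from its start. NetA (FBgn0015773, chrX:14604012-14653928, minus strand) had both in its first intron of 31254 bp. The peak at chrX:14627426-14627821 had a signal of 104 (rank 1845), and its ranks were 1349 in replicate 1 and 3111 in replicate 3. The summit was 26210 bp into the gene from the nearest NetA TSS, with the TSS of sbm, an amino acid transporter gene, at 25044 bp. The second, at chrX:14633128-14633523, had a signal of 90.1 (rank 2386), 20508 bp from the NetA TSS, and ranked 2148 in replicate 1 and 2748 in replicate 3. Thus both NetA peaks were within the 2697 highest of replicate 1 and outside those of replicate 3. The NetA promoter itself had 1 pooled peak, of signal 26.0 (rank 28068), 20 bp from the TSS.

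NetB (FBgn0015774, chrX:14686038-14749376, minus strand) had the 2 Netrin peaks of higher signal. The stronger had a signal of 142 (rank 1036) and lay in intron 3, which spans 53377 bp, nearer to the TSS of hog than to that of NetB. It ranked 1751 in replicate 1 and 830 in replicate 3. The other, at chrX:14689064-14689459, had a signal of 129 (rank 1235) and fell in the 3′ UTR, 59748 bp from the NetB TSS, with the nearest coding TSS, of CG5321, 9694 bp away. It ranked 1802 in replicate 1 and 1108 in replicate 3, so both NetB peaks ranked higher in replicate 3, the reverse of NetA. The strongest NetB promoter peak had a signal of 44.2 (rank 9612), with a match in replicate 1 (rank 6493) and none in replicate 3. The DNA between the NetA and NetB genes held 0 optimal and 4 pooled peaks.

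The 3 Robo receptor genes differed from one another. At robo1 (FBgn0005631, chr2R:22692524-22700970, minus strand), the receptor that prevents recrossing, 1 optimal peak lay on the promoter. That peak, at chr2R:22700745-22701140, had its summit 27 bp downstream of the TSS, a signal of 101 (rank 1959), and ranks of 2457 in replicate 1 and 1837 in replicate 3. The other 4 pooled peaks of robo1 were in coding exons, with signals of 27.5 to 55.2.

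At robo2 (FBgn0002543, chr2L:1380086-1420453, minus strand; older name lea), 1 optimal peak lay inside the interval and a stronger one just beyond it. The promoter peak at chr2L:1420219-1420614 was 36 bp downstream of the TSS with a signal of 98.6 (rank 2027). It ranked 1305 in replicate 1 and 4245 in replicate 3, the largest disagreement among the 12 peaks (3.25 times). The stronger peak lay in intergenic DNA upstream of the interval, with robo2 as the nearest coding TSS. Its signal of 223 (rank 412) exceeded that of any optimal peak inside the 9 intervals, and it ranked 435 in replicate 1 and 418 in replicate 3. With 5000 bp of upstream DNA it is counted, and robo2 then has 2 optimal peaks.

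The receptor gene robo3 (FBgn0041097, chr2L:1256417-1296596, plus strand), which lies 83.5 kb from robo2, was almost free of peaks. Its interval of 42.2 kb held 0 optimal peaks and 1 pooled peak, beside 14 pooled peaks in the 42.4 kb of robo2. That single peak, at chr2L:1292960-1293355, had a signal of 33.5 (rank 17539) in a coding exon, and ranked 29563 in replicate 1 and 21086 in replicate 3. The best-ranked peak of robo3 in each replicate's own list was 27586 in replicate 1 and 19552 in replicate 3, deep in the part of the lists that contains background. Of 135 genes within 10% of its length, robo3 included, 17 had at most 1 pooled peak, and the median was 8. Of the same 135, 56 (41.5%) were bound, so most also lacked an optimal peak. Repeat-masked bases made up 14.0% of the robo3 interval and 13.8% of the robo2 interval, and GC content was 43.4% and 44.6%. The nearest optimal peak outside the robo3 interval was 81.6 kb away.

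Frazzled and Unc-5, the receptors for Netrin, had the receptor peaks of highest signal inside the intervals, below the peak of 223 upstream of robo2. The gene fra (FBgn0011592, chr2R:12529053-12564184, plus strand) had 3 optimal peaks, the most of the 9 genes. All 3 lay within its first intron of 26746 bp. The strongest, at chr2R:12538083-12538478, had a signal of 165 (rank 777), lay 9228 bp from the TSS, and ranked 980 in replicate 1 and 677 in replicate 3. The next, at chr2R:12543612-12544007, had a signal of 126 (rank 1280), lay 14757 bp from the TSS, and ranked 1258 and 1447 in replicates 1 and 3, the closest agreement of the 12 peaks (1.15 times). The weakest, at chr2R:12540634-12541029, had a signal of 89.5 (rank 2409), lay 11779 bp from the TSS, and ranked 1740 in replicate 1 and 3489 in replicate 3. The nearest coding TSS to each of the 3 was that of CG33752, at 7408, 1879 and 4857 bp. Among 156 genes within 10% of the length of fra, 11 had at least 3 optimal peaks. The other bound genes stood out less from genes within 10% of their own length. At least as many optimal peaks were held by 24 of 104 for sli, 22 of 79 for NetB and 125 of 430 for robo1. The counts were 57 of 140 for robo2 and 72 of 165 for unc-5, and for NetA 29 such genes had at least 2. At the fra promoter a peak of signal 44.9 (rank 9308) was matched in replicate 3 (rank 3348) and not in replicate 1.

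At unc-5 (FBgn0034013, chr2R:15340472-15368300, plus strand), 1 optimal peak lay upstream of the gene. It was at chr2R:15339483-15339878, in intergenic DNA 791 bp before the TSS, with a signal of 166 (rank 763), the highest inside the 9 intervals. It ranked 1065 in replicate 1 and 597 in replicate 3. Next below the threshold unc-5 had 3 more peaks, with signals of 82.4 (rank 2810), 72.1 (rank 3589) and 68.5 (rank 3962). The nearest unc-5 TSS to all 3 was the second annotated one, inside the gene, with the peak of 72.1 at 250 bp upstream of it and those of 82.4 and 68.5 at 11092 and 4403 bp downstream. From the highest signal to the lowest, they ranked 4190, 6216 and 14382 in replicate 1 and 2570, 2458 and 2318 in replicate 3. In replicate 3 alone, therefore, unc-5 had 4 peaks among the 2697 highest, while replicate 1 had 1.

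The regulator comm (FBgn0010105, chr3L:15721511-15728430, minus strand) had 0 optimal peaks, and its 2 highest peaks lay below the threshold of rank 2697. Most genes of its length also had none: of 587 within 10% of it, comm included, 167 (28.4%) were bound. The promoter peak at chr3L:15728186-15728581, 46 bp downstream of the TSS, had a signal of 69.9 (rank 3804), and ranked 5207 in replicate 1 and 3669 in replicate 3. The upstream peak at chr3L:15729387-15729782, 1155 bp before the TSS, had a signal of 63.8 (rank 4525), and ranked 8631 in replicate 1 and 8400 in replicate 3. Both were found in each replicate, in neither among the 2697 highest. For comparison, the last peaks inside the optimal list were those of fra at 89.5 and sli at 85.2. The nearest optimal peak to comm, of signal 88.3, lay 5.61 kb beyond its interval.

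The 12 optimal peaks did not rank equally in the replicates. All 12 were among the 2697 highest of replicate 1, and 7 were among those of replicate 3, so that 7 (58.3%) were in both, beside 1874 of all 2697 optimal peaks (69.5%). The 7 peaks in both comprised 3 of 6 in ligands (1 of sli and the pair of NetB) and 4 of 6 in receptors (robo1, unc-5 and 2 of fra). The 5 below rank 2697 in replicate 3 were both peaks of NetA and 1 each of sli, robo2 and fra. The largest offset between a replicate and the pooled summit was 92 bp. The matching rule itself limits this offset, since the pooled summit must lie inside the replicate peak. The pooled list also comes from both replicates, so the offset is not a separate measure of agreement. Replicate 1 alone gave peaks among its 2697 highest in 7 of the 9 genes, where 20.1% of all genes had one. Replicate 3 alone gave them in 5 of the 9 (sli, NetB, robo1, fra and unc-5), where 19.5% of all genes had one. NetA and robo2 were thus counted as bound from replicate 1 and the pooled list, not from replicate 3. NetA fell just short there, with a best rank of 2748 and a signal of 44.0, against 44.3 at rank 2697. The best rank of robo2 in replicate 3 was 3759.

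**Figure D2:**
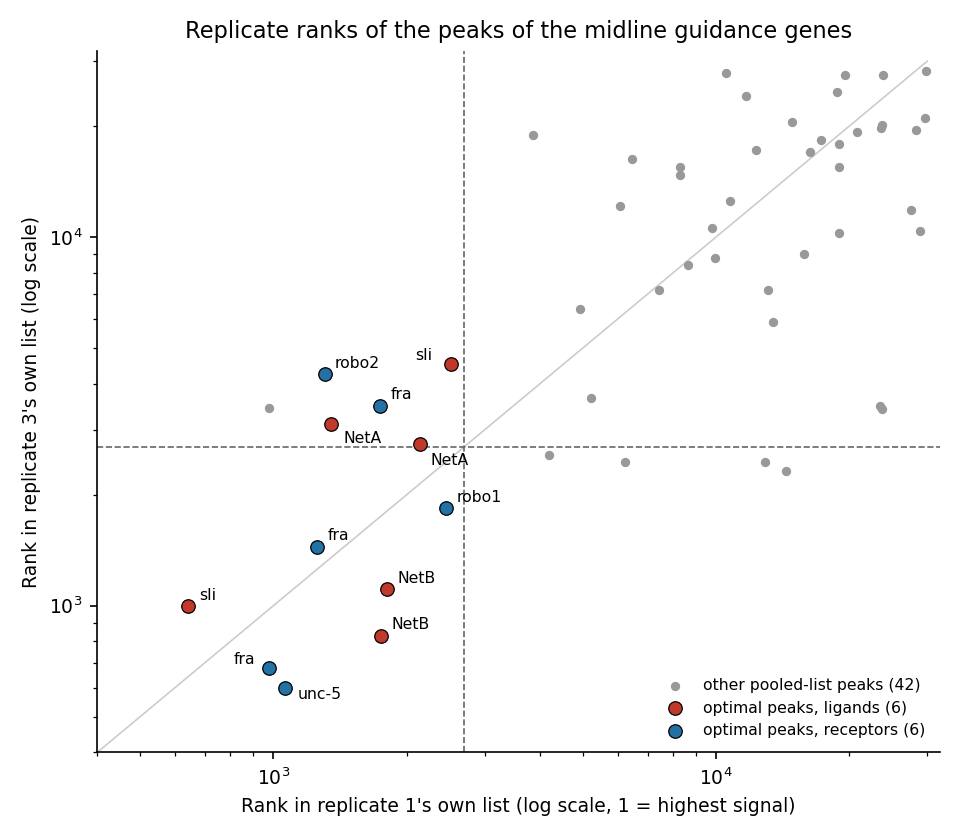
Rank of each peak of the 9 genes in replicate 1 (x axis) and in replicate 3 (y axis), both on log scales with rank 1 the highest signal; dashed lines mark rank 2697. The 12 optimal peaks (red for ligands, blue for receptors) all lie left of the vertical line and 7 lie below the horizontal one; the 42 grey points are weaker pooled peaks matched in both replicates.

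Over all pooled peaks the 9 genes matched the rest of the genome in how often the replicates shared a peak. Of their 111 pooled peaks, 54 (48.6%, Wilson 95% interval 39.6 to 57.8%) had the summit inside a peak of each replicate, beside 46.5% of all 30000 pooled peaks. Closely spaced pooled peaks can share 1 replicate peak, because the best-ranked replicate peak that holds the summit is taken. A weak fra peak of rank 20293 lies beside the strongest fra peak and takes the same peak of replicate 1, rank 980. Replicate 1 also has a peak of rank 6824 over that summit. The rule thus places this weak peak alone at the left of the plot of replicate ranks. The Wilson interval covers counting error only and treats the 111 peaks as independent. They cluster in 9 genes and some share a replicate peak, so it is likely too narrow.

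In the number of peaks per length the genes spread widely around the background. Together they held 111 pooled peaks in 342.8 kb (32.4 per 100 kb), beside 28.2 per 100 kb in genes of like length and 27.0 in all coding genes. For optimal peaks the densities were 3.5 per 100 kb in the 9 genes, 2.58 in genes of like length and 2.46 in all coding genes. Single genes ran from 2.37 pooled peaks per 100 kb in robo3 to 67.3 in comm. The value of comm comes from 6 peaks in the shortest interval, 8.9 kb, with 2 overlapping pairs among them. Of 587 genes within 10% of its length, comm included, 110 had at least 6 pooled peaks. Within the ligands sli had 49.4, while NetA had 21.2 and NetB 18.4. Within the receptors unc-5 had 53.6, fra 51.2, robo1 47.9 and robo2 33.0. By optimal peaks robo1 (9.57 per 100 kb, from 1 peak) and fra (8.08, from 3) came first. The order by pooled peaks was not that by optimal peaks, since comm, first by the one, had none of the other.

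**Figure D3:**
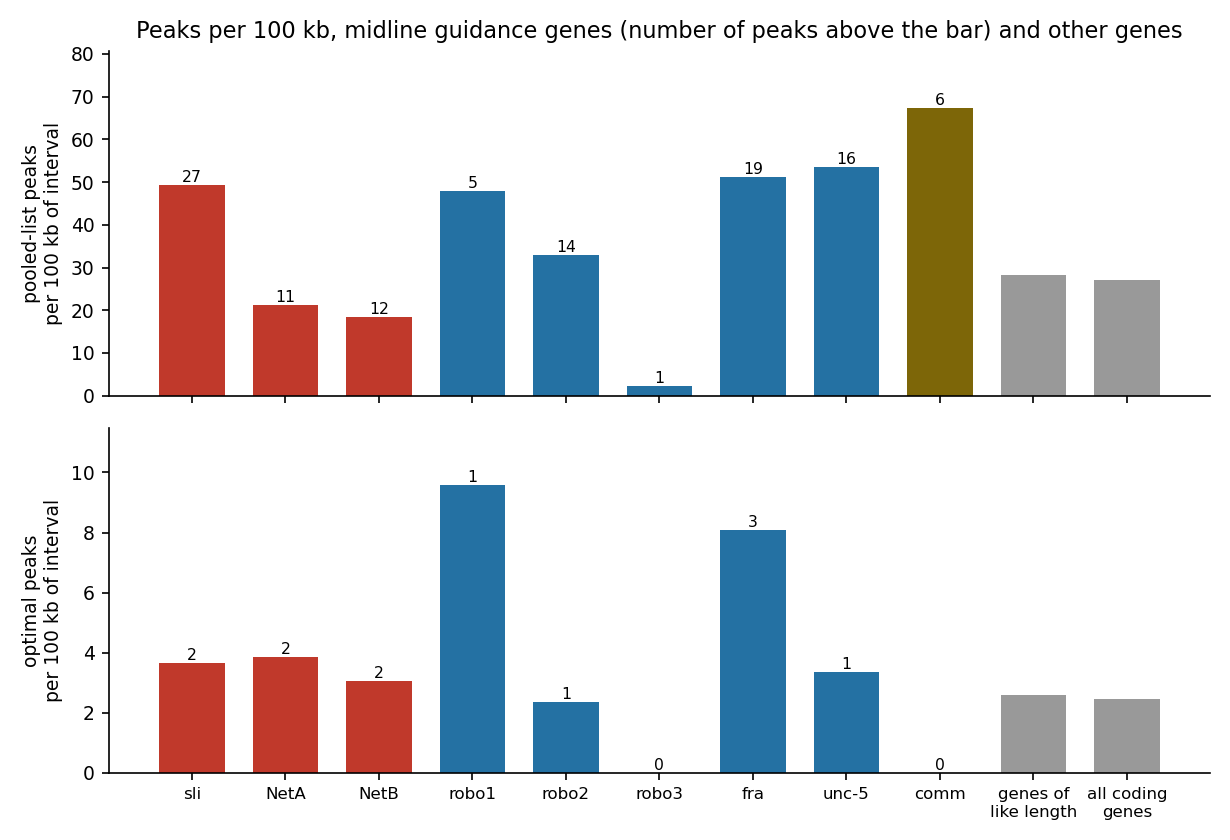
Pooled peaks (upper) and optimal peaks (lower) per 100 kb of interval for each gene (ligands red, receptors blue, comm brown) and, in grey, for genes of like length and all coding genes; numbers above the bars are peak counts. The bar of robo3 is the lowest in the upper panel at 2.37, and robo3 and comm are at 0 in the lower one.

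Optimal peaks of the midline guidance genes lay mainly in introns. Each summit was given the first class that applied, starting with promoter (within 500 bp of any coding TSS), then exon classes, intron and intergenic. Of the 12 summits 7 (58.3%) were intronic, 3 (25.0%) in promoters, 1 in a 3′ UTR and 1 intergenic. In genes of like length 43.1% of 1273 optimal summits were intronic and 50.7% in promoters. Shorter genes prevail in that set, so it is not matched to the length of each member. How far gene length sets these shares was not tested. In the whole optimal list these shares were 29.5% and 55.1%. The promoter peaks were those of sli, robo1 and robo2, and all 3 ranked below the middle of the optimal list. Ligands had 4 intronic and 1 promoter peak of 6, receptors 3 intronic and 2 promoter peaks of 6. Of the 99 weaker pooled peaks of the 9 genes 61 (61.6%) were intronic, 21 (21.2%) in coding exons and 10 (10.1%) in promoters, beside 43.6%, 24.8% and 24.0% in genes of like length and 30.3%, 25.4% and 26.4% of all 27302 weaker peaks.

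**Figure D4:**
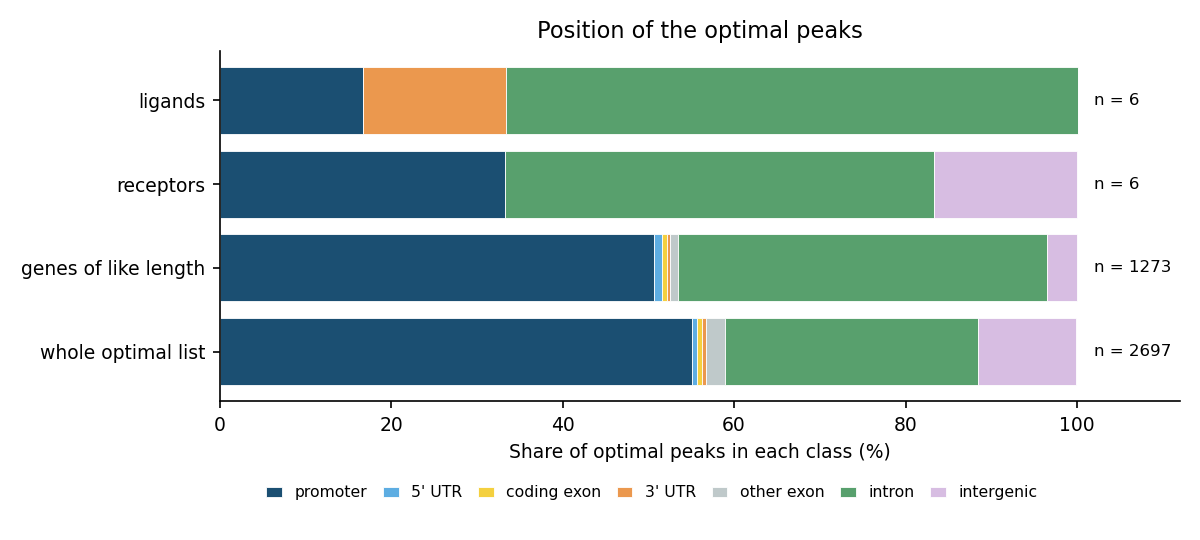
Share of optimal summits in each position class for ligands, receptors, genes of like length and the whole optimal list, in percent, with the number of peaks at the right. Promoter summits (dark blue) make up 1 of 6 in ligands and 2 of 6 in receptors. They make up 50.7% in genes of like length, where shorter genes prevail, and 55.1% in the whole list.

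The reported Repo site was found in few of these peaks, as in the optimal list as a whole. CAATTA stood within 100 bp of the summit in 1 of the 12 peaks (8.33%), the fra peak of signal 126, beside 17.4% of all optimal peaks. Within 200 bp it stood in 3 of 12 (25.0%), beside 31.3% of all optimal peaks. With 12 peaks, 1 peak more or less moves these shares by 8.33 percentage points. Flanking windows of equal length, with their centres 1000 bp from the 12 summits on each side, held it in 5 of 24 cases (20.8%). The other fixed motifs, searched on both strands, were the homeodomain words TAATTA and TAATGA, the Gcm site ATRCGGGY (R stands for A or G, Y for C or T), the GAGA factor site GAGAGAG, the DRE word TATCGATA, the promoter word GGTCACAC, the Zelda core CAGGTA, the E-box CACGTG and the GATA factor site AGATAAG. Of these, TATCGATA was in the robo1 promoter window (4.93% of all optimal windows hold it), and CAGGTA was in the fra peak of signal 165 (4.12%). In all, 3 of 12 windows (25.0%) held a fixed motif, beside 48.3% of all optimal windows and 13 of 24 flanking windows (54.2%). The 3 were receptor peaks, with 0 of 6 in ligands. TAAT, which is part of CAATTA and of both homeodomain words on one strand or the other, was in 10 of 12 (83.3%), 5 of 6 in ligands and 5 of 6 in receptors, beside 87.2% of all optimal windows and 79.2% of the flanks. Median GC content of the windows was 36.6% in the 12 peaks, 38.8% in all optimal peaks and 48.8% in the 99 weaker peaks of the same genes. A match is a string of letters and not a measured site.

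Genes around the pathway were counted from 4 lists, and 28 of the 51 genes matched (54.9%) were bound, beside 19.7% of all coding genes. These lists were drawn up with earlier results known and were not matched for length. Their gene intervals ran from 3.3 to 147.4 kb, and the longest were in the surface co-receptor and matrix list. Over all coding genes the share bound was 13.1% for intervals of 2 to 5 kb, 44.7% for 40 to 80 kb and 51.1% for 80 kb or more. The 19.7% is therefore not a background of like length. Of the surface co-receptor and matrix genes 7 of 14 were bound, led by the glypican gene dlp at a signal of 235, Sema1a, encoding a transmembrane semaphorin, at 118, and kuz, encoding a metalloprotease that cleaves Robo, at 116. Of the cytoplasmic signalling genes 11 of 18 were bound, led by Mtl, a Rac-like GTPase gene, at 369, the Abl tyrosine kinase gene at 250 and shot, encoding a cytoskeletal linker, at 196. Of the comm family and receptor traffic genes 4 of 8 were bound, led by comm3, a relative of comm, at 232, AP-2alpha, an adaptor subunit gene, at 199 and Nct, encoding a part of gamma-secretase, at 137. In the list headed midline cell identity 6 of 11 genes were bound. They were led by spi, encoding an EGF receptor ligand, at 329, and aos, encoding an inhibitor of that pathway, at 328. Next came S (Star), whose product moves Spitz through the cell, at 295. Also bound were sim (199), rho (103) and wrapper (94.4), while tgo, vvl, D, SoxN and odd had no optimal peak. Thus EGF receptor pathway genes led the list, and of its transcription factor genes only sim was bound. Several of these summits lie nearest another gene's TSS: that of comm3 is in the promoter of Phs, that of Mtl nearest CG5611, that of AP-2alpha nearest ebi, that of Nct nearest CG7006, that of kuz nearest B4 and that of dlp nearest CG43121.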

How the data were processed

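ChIP-seq peak lists on dm6 were used: 1 list per replicate and 1 of pooled replicates, made to be compared by irreproducible discovery rate (IDR), and the optimal list left after the IDR threshold, per the text files the authors deposited. The deposited signal value of each peak is the authors' own and its scale is not stated. The IDR threshold, peak caller and aligner were not given in the sources used here. The dm3 lists were not used. Replicates were grouped by the labels, which say they are separate biological replicates.

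Coordinates are 1-based. Summits come from the deposited offsets. Genes, TSSs and classes come from Ensembl release 115 (BDGP6), and sequence and repeat masking from the RefSeq Release 6 genome. A gene's interval runs from 2000 bp upstream to its end, and a promoter reaches 500 bp from a coding TSS. Peaks were matched when a summit lay inside the other list's peak, and where several peaks held it the best-ranked was taken. Computation used Python 3.11.15, numpy 2.4.6 and scipy 1.17.1, and was tested on simulated data.

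The members, lists and motifs were chosen with earlier results of these data known. The 9 genes are all named. Of each pathway list the 3 bound genes of highest signal are named, and of neighbours the gene of the nearest TSS. For the midline cell identity list all 11 matched genes are named. Alternatives changed the upstream extent, the list threshold, the assignment, the promoter window, the matching rule and the motif window, and used each replicate alone. Nck, srGAP and argos were not matched by symbol. The sequences of some peaks are not reported here.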

Additional observations from a re-analysis of the deposited data

How the results depend on the processing

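Of 64 alternative values 51 stayed within 1.5 times of the main count or within its counting interval, and 13 moved further. The 64 include counts over all coding genes. With few genes and peaks the counting intervals are wide, so a value can shift and still count as unchanged. The CAATTA share did so, from 8.33% to 25.0%. Ranking by 1 replicate in place of the pooled list gave 5 to 7 genes bound, 10 to 12 optimal peaks, 2 to 3 ligands and 3 to 4 receptors. The lower values came without replicate 1, where NetA (best rank 2748, just below the cut) and robo2 (best rank 3759) were lost. The peaks then split 3 in ligands to 7 in receptors. Of those 7, 4 were in unc-5. In the 1348 optimal peaks of highest signal, 4 genes (NetB, fra, sli and unc-5) with 6 peaks remained bound, 2 of them receptors, with 0 promoter and 4 intronic peaks, beside 1580 of all genes. With no upstream DNA unc-5 was lost and 1167 of all genes were bound. With the 5394 highest pooled peaks comm was gained, giving 8 genes and 18 peaks, beside 4561 of all genes. Assigning each summit to the nearest coding TSS gave 7 peaks, 6 of the 12 and 1 upstream of the robo2 interval, and dropped NetB and fra. Keeping summits more than 500 bp from any coding TSS, an alternative chosen after seeing the data, dropped robo1 and robo2, left 2 receptors and gave 763 of all genes. The share of pooled peaks matched in both replicates was 6.31% against the 2697 highest of each, beside 6.38% of all pooled peaks. The TAAT core, also added after seeing the data, gave 83.3% in place of 8.33% for CAATTA, which a window of 200 bp put at 25.0%. Under each of the 9 alternatives to the rule for bound genes robo3 had no peak. The lists hold no reads, so depth sets an unknown limit on robo3 and comm, and the replicates give 2 libraries of whole embryos with no control chromatin analysed here.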
